A study of Mus musculus with 6 samples.

Results

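The BCL2 family genes described here are 9 genes that hold or release the mitochondrial brake on cell death: the survival genes Bcl2, Bcl2l1, Bcl2l2 and Mcl1, the pore-forming effectors Bax and Bak1, and the BH3-only genes Bad, Bid and Bcl2l11. They were taken by name, from the probe sets whose single annotated symbol is that of a member. Of the 9 genes 8 were found, among 15964 named genes on the chips, and Bax carried no such probe set and is not analysed here. The 8 genes have 21 probe sets among 36701.

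The arrays measured total RNA that the labels assign to spermatogonia, the dividing germ cells at the base of the tubules, from mice 1 week old on a mixed 129sv and C57Bl/6 background. Wild-type mice were compared with mice in which Zfp145 was knocked out, a gene for a transcriptional repressor with zinc fingers that is now called Zbtb16 and is also known as PLZF. The comparison asks which transcripts differ when the gene is lost. Each genotype was measured on 1 array of each of the chips U74Av2, U74Bv2 and U74Cv2, so no difference has a replicate check, no test was possible and no p-value is given. The labels do not name the deleted part of the gene, the number of mice behind each RNA or the way the cells were isolated.

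In the mitochondrial pathway of apoptosis, BAX and BAK permeabilise the outer mitochondrial membrane, which lets cytochrome c out to form the apoptosome with APAF1 and caspase 9. BCL2, BCL-XL, BCL-W and MCL1, the products of the survival genes, hold the effectors and the BH3-only proteins in check. The BH3-only proteins relay death signals, BAD from lost growth factor signalling, BID from death receptors and BIM, the product of Bcl2l11, from several kinds of stress. The family is known for its part in the early wave of germ cell death in the young testis, in which survival and death proteins set how many spermatogonia remain. Much of its control lies in protein binding, phosphorylation and cleavage, which RNA does not show.

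The targeted gene stood lower in the null array wherever it was measured. Its probe set 92202_g_at on U74Av2 gave 770.2 for wild type and 158.1 for null (log2 ratio -2.29), and 136068_at on U74Cv2 gave 1156.8 and 510.8 (log2 ratio -1.20). Intensities are printed as deposited, and log2 ratios of null over wild type follow a small rescaling of the null array. Each chip had a floor, the 40th percentile of its values, which was 98.3 for U74Av2, 165.2 for U74Bv2 and 124.1 for U74Cv2. A probe set above the floor on at least 1 array is called measured. One with 1 array at the floor gives only a bound on its ratio, and one with both at the floor gives none. Of the 21 probe sets of the family 14 were above the floor on both arrays, 2 gave a bound and 5 gave no ratio, so the 16 ratios below are not those of every probe set. As a yardstick in place of replicates, the spread is the scatter of log2 ratios among probe sets that share a gene and a chip, computed for low, middle and high level. On U74Av2 it was 0.38, 0.21 and 0.15, on U74Bv2 0.35, 0.33 and 0.24, and on U74Cv2 0.54, 0.42 and 0.30. It covers technical scatter and differences between transcripts, and not the variation between mice.

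Differences in the family were small. All 8 measured survival gene probe sets read slightly lower in the null array, between -0.45 and -0.03, and so did Bak1, at -0.49. The BH3-only genes went both ways. Of the 16 measured probe sets 13 lay below 0, where the share below 0 among all measured probe sets was 51.9% for U74Av2, 49.8% for U74Bv2 and 50.8% for U74Cv2. The 16 include the 2 bounds, whose signs follow from which array passed the floor. Above the floor on both arrays, a subset chosen after seeing the data, 12 of 14 lay below 0. For that subset no share over the chips was computed. These probe sets are not independent of each other, since several share a gene or a target sequence. In bulk RNA, fewer cells that express a gene and less of its RNA per cell cannot be told apart. At least 2-fold different was 1 of the 16, a bound for Bad on U74Av2, and the same fold was passed by 0.908% of all measured probe sets on that chip, by 1.82% on U74Bv2 and by 11.1% on U74Cv2.

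**Figure D1:**
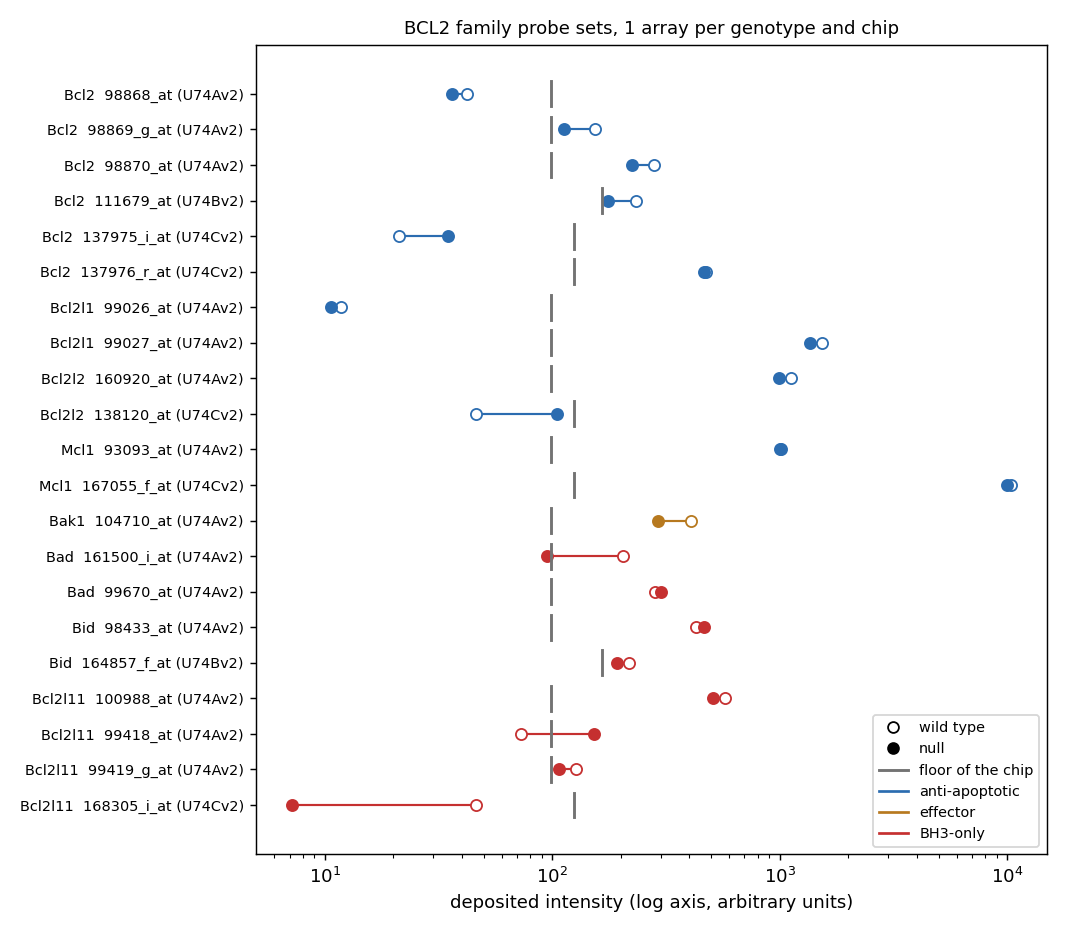
Deposited intensity, on a log axis in arbitrary units, of the 21 probe sets of 8 BCL2 family genes in the wild-type array (open circles) and the null array (filled circles) of each chip, 1 array each, with the chip's floor as a grey tick and the class of the gene as the colour. The circles of most probe sets above the floor lie close together, and the widest gaps are at or below the floor.

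Bcl2, the founding survival gene, had the most probe sets. On U74Av2 98870_at gave 280.3 for wild type and 224.8 for null (log2 ratio -0.33). The probe set 98869_g_at, built from the same target sequence, gave 153.5 and 112.9 (log2 ratio -0.45). On U74Bv2 111679_at, from another target, gave 234.1 and 176.6 (log2 ratio -0.41). All 3 are dim, and their ratios lay between 0.85 and 1.18 times the spread at low level. On U74Cv2 137976_r_at gave 474.2 and 465.4 (log2 ratio -0.05), which puts the arrays level with each other. The 2 others were at the floor on both arrays, at 42.1 and 36.4 for 98868_at on U74Av2 and at 21.2 and 34.8 for 137975_i_at on U74Cv2. All 4 ratios of Bcl2 therefore lay below 0, with a median of -0.37, and 2 of them went beyond the spread.

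Bcl2l1, which encodes BCL-XL and is needed for germ cell survival, was measured by 1 bright probe set. On U74Av2 99027_at gave 1539.8 for wild type and 1358.8 for null (log2 ratio -0.19). The other, 99026_at, read 11.8 and 10.6, far under the floor. Bcl2l2, which encodes BCL-W and without which male mice lose their germ cells later in life, gave nearly the same ratio. On U74Av2 160920_at gave 1124.1 and 994.1 (log2 ratio -0.19), while 138120_at on U74Cv2 read 46 and 105.2, both under the floor. These differences of about 1.14-fold were 1.29 and 1.27 times the spread at high level, and 49.9% and 50.7% of all measured probe sets on the chip lay at least as far from 0.

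Mcl1, a survival gene whose protein turns over quickly, was level between the arrays on both chips. On U74Av2 93093_at gave 1016 for wild type and 1000.4 for null (log2 ratio -0.03). On U74Cv2 167055_f_at gave 10349.7 and 9948.9 (log2 ratio -0.08). Both lay well within the spread, at 0.21 and 0.26 times its size, and at most 1.06-fold apart.

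Bak1, one of the pair of genes whose products open the outer mitochondrial membrane, had the lowest ratio among the members above the floor on both arrays. Its only probe set, 104710_at on U74Av2, gave 409 for wild type and 292.9 for null (log2 ratio -0.49, 1.40-fold lower). This was 2.32 times the spread at middle level, and 11.5% of all measured probe sets on the chip lay at least as far from 0. No other probe set of Bak1 was there to check it, and with Bax not analysed here the effectors rest on this value alone.

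The stretches upstream of Bcl2 and Bak1 are shown because probe sets of these genes, at -0.49 for Bak1 and -0.45 for 98869_g_at of Bcl2, had the lowest ratios above the floor on both arrays, although the ratios of Bcl2 run up to -0.05. Each is the 250 bases before the annotated start, 5′ to 3′ on the gene's strand, from RefSeq on GRCm38.p6. The Bcl2 stretch is chr1:106714291-106714540 on the minus strand and the Bak1 stretch chr17:27028628-27028877 on the minus strand. Capitals mark the GC box GGGCGG or its reverse complement CCGCCC, searched on both strands, with no match overlapping another.
Bcl2: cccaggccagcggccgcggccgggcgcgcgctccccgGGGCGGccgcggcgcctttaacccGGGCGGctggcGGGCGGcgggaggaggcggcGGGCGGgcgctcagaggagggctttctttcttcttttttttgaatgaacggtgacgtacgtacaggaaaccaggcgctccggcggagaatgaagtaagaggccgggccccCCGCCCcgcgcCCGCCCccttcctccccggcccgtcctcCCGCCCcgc
Bak1: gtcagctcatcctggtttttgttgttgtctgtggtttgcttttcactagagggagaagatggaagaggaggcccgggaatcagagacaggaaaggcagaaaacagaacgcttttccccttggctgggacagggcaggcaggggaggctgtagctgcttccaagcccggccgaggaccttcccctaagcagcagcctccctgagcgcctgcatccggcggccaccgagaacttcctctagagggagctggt
The Bcl2 stretch holds 7 matches and is 74.8% G and C, while the Bak1 stretch holds 0 matches at 58.4%. Among all 32851 promoter stretches of this length in the table, 32.7% hold at least 1 match and 0.411% hold 7 or more. The stretches thus differ in this feature, and a match is a description of the letters, not a site shown to be bound.

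Bad, whose protein is kept inactive by growth factor signalling, was measured by 2 probe sets that disagree. On U74Av2 99670_at gave 282.8 for wild type and 302.2 for null (log2 ratio 0.09), well within the spread. The probe set 161500_i_at read 205.5 and 95.3 on the same arrays, with the null at the floor, so it was at least 2.09-fold lower, a bound of -1.06. As a measured member through the wild type alone it had to lie below 0. Its null value lay just under the floor of 98.3, and after loess on level the bound fell just short of 2-fold.

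Bid, the BH3-only gene cut by caspase 8 on the way from death receptors to mitochondria, was level between the arrays within the spread. On U74Av2 98433_at gave 427 for wild type and 462.4 for null (log2 ratio 0.11). On U74Bv2 164857_f_at gave 216.9 and 192.6 (log2 ratio -0.18). The pair points in opposite directions, each at 0.50 times its spread.

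Bcl2l11, which encodes BIM, gave mixed values. On U74Av2 its brightest probe set, 100988_at, gave 576.3 for wild type and 506.5 for null (log2 ratio -0.20), 0.92 times the spread. The 2 dim probe sets of that chip share 1 target sequence and went opposite ways. The probe set 99419_g_at gave 127.5 and 107.1 (log2 ratio -0.26), and 99418_at read 72.6 and 152.3, at least 1.54-fold higher with the wild type at the floor, a bound of 0.62. With the floor at the 20th percentile, which both arrays pass, the latter ratio was 1.06. On U74Cv2 168305_i_at read 46.4 and 7.2, both under the floor. As a measured probe set through the null array alone, 99418_at had to lie above 0. None of the 10 probe sets of the family above the floor on both U74Av2 arrays was 1.5-fold different. The bounds of Bad and Bcl2l11 passed that fold, each in the only direction open to a probe set with 1 array above the floor. Of all measured probe sets of the chip 7.34% passed it, and nothing is read from the count of these bounds.

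**Figure D2:**
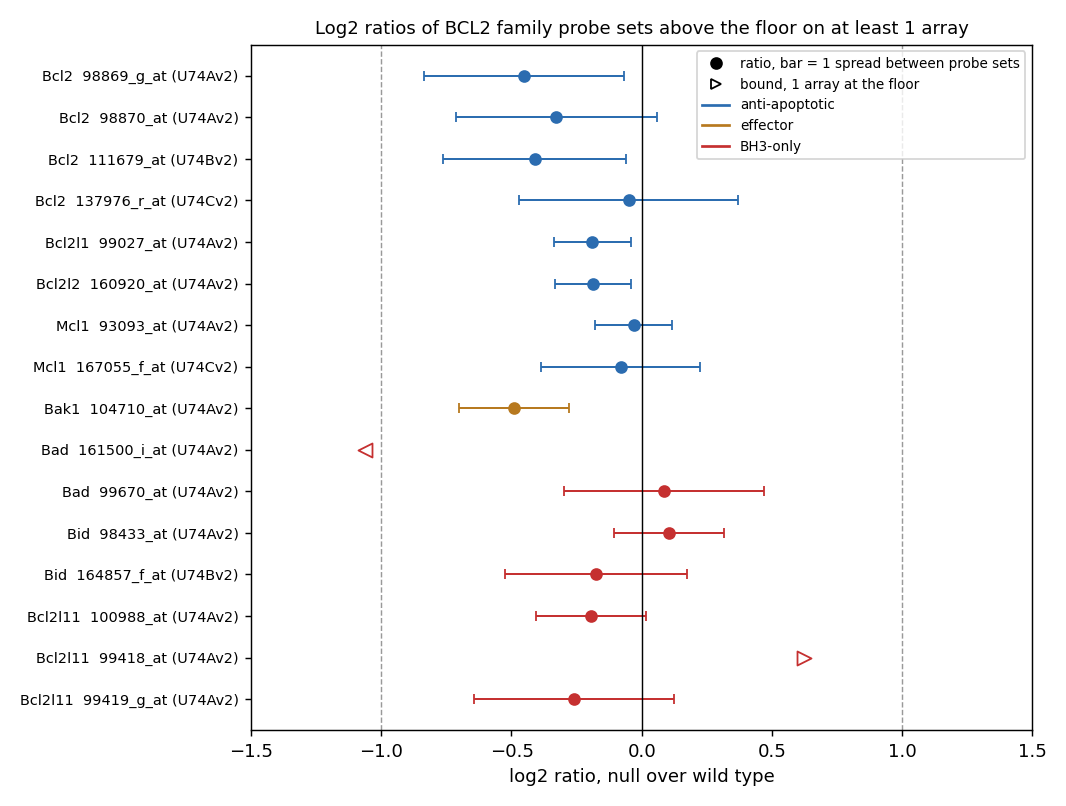
Log2 ratio of null over wild type for the 16 probe sets of the family above the floor on at least 1 array. Circles are ratios with a bar of 1 spread for that chip and level, open triangles are bounds with 1 array at the floor, and dashed lines mark 2-fold. The survival genes and Bak1 lie left of 0, from -0.49 to -0.03, and 7 of the 16 lie beyond 1 spread.

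Beyond 1 spread lay 7 of the 16 probe sets, 4 belonging to survival genes, Bak1 and the bounds of Bad and Bcl2l11. Among all measured probe sets the share beyond 1 spread was 39.4% for U74Av2, 36.9% for U74Bv2 and 39.5% for U74Cv2. On U74Av2 alone it was 6 of 12, of which 2 are the bounds. Beyond 2 spreads on that chip lay Bak1 and the bound of Bad, that is 2 of 12, where the share among all its measured probe sets was 12.3%.

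**Figure D3:**
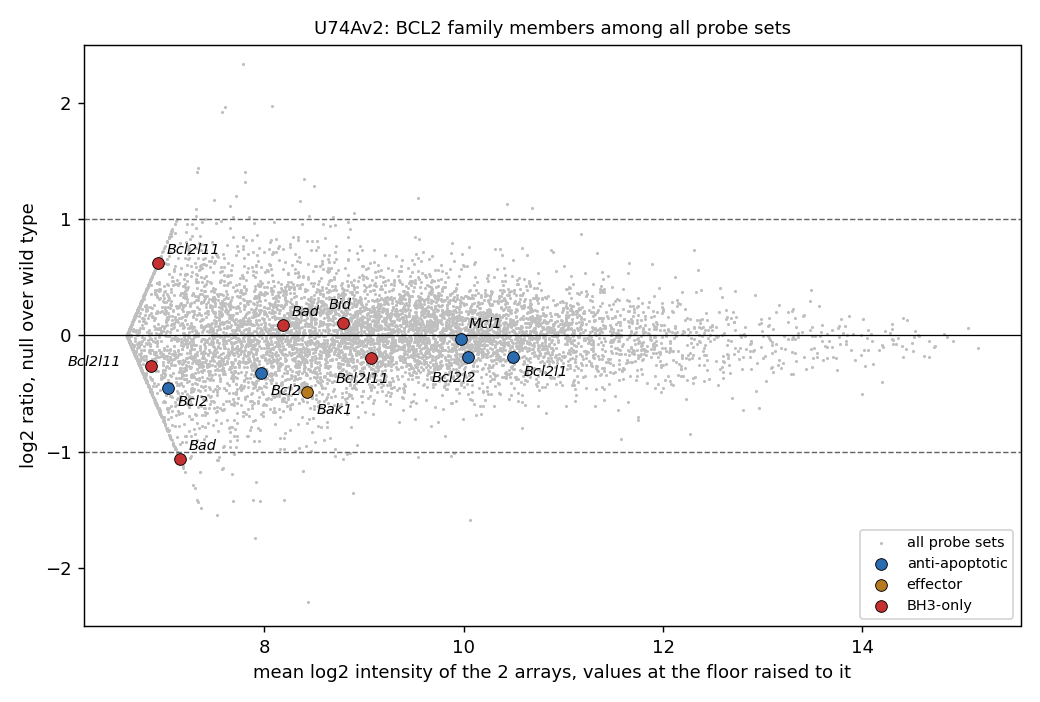
Log2 ratio of null over wild type against the mean log2 intensity of the 2 arrays on U74Av2, for all measured probe sets (grey) and the 12 measured ones of the family (coloured by class). Values at the floor were raised to it, which makes the slanted edges, and dashed lines mark 2-fold. The members lie inside the grey cloud, with the bounds of Bad at -1.06 and Bcl2l11 at 0.62 on its slanted edges.

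By class, with each gene standing by its brightest probe set relative to its chip, the survival genes had a median log2 ratio of -0.13 over 4 genes, with all 4 below 0, at -0.19 for Bcl2l1 and Bcl2l2, -0.08 for Mcl1 and -0.05 for Bcl2. The BH3-only genes had a median of 0.09 over 3 genes, at 0.11 for Bid, 0.09 for Bad and -0.20 for Bcl2l11. The effectors had 1 value, that of Bak1. Over the 8 genes the median was -0.13 with 6 below 0, beside -0.01 over all 12447 measured named genes, of which 51.5% lay below 0. The BH3-only median thus stood 0.22 above that of the survival genes. That order rests on U74Av2, since without this chip the BH3-only median was -0.18, from Bid alone, and the difference turned to -0.11. With the mean over all measured probe sets of a gene the BH3-only median was -0.04 and that of the survival genes -0.19. Taken over probe sets and not genes, the medians were close, at -0.18 for 7 of BH3-only genes and -0.19 for 8 of survival genes. The values of Bid and Bad used for the class lay within the spread, at 0.50 and 0.23 times its size. That of Bcl2 came from 137976_r_at, the highest of its ratios, with the others from -0.45 to -0.33. With only probe sets of plain design, those without a design letter in the name, the survival gene median was -0.19. The difference between the classes was then 0.27.

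Within U74Av2, where all 8 genes were measured on the same arrays, each death gene was set against each survival gene by the difference of their log2 ratios. Of the 16 pairs 9 stood above 0, which means a higher ratio for the death gene, and 7 below. Bid stood 0.30 above Bcl2l1, 0.29 above Bcl2l2 and 0.43 above Bcl2. Bak1 stood below every survival gene, at -0.46 against Mcl1 and -0.16 against Bcl2. Beyond the combined spread of both probe sets lay 5 pairs, those of Bid and of Bak1 with Bcl2l1 and Bcl2l2 and that of Bak1 with Mcl1. For pairs of other genes on the chip no such share was computed, so whether 5 of 16 is unusual was not tested. Among all single measured probe sets of U74Av2, 39.4% lay beyond their own spread. The 16 pairs reuse 8 values, and the pairs beyond the spread point to opposite sides.

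Other genes of the death pathway were described as 5 lists, and none of their measured genes was 2-fold different, beside 3.05% of all measured named genes. Among the rest of the BCL2 family 13 of 19 genes were measured, 8 below 0 and 5 above, with a median of -0.02. Bmf, a BH3-only gene linked to the cytoskeleton, gave 2254.7 for wild type and 1825.4 for null on U74Bv2 (log2 ratio -0.31). Bok, a relative of the effectors, gave 1242.7 and 1527.7 on U74Av2 (log2 ratio 0.29). The remaining measured BH3-only genes, given for their class and not by the naming rule, went both ways, with Bbc3 (PUMA), a target of p53, at -0.33, Bik at -0.05, Pmaip1 (NOXA), another target of p53, at 0.32 and Hrk at 0.39.

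Downstream of the members, 18 of 22 genes of mitochondria and the apoptosome were measured, 10 below 0 and 8 above, with a median of -0.05. Vdac3, a channel of the outer mitochondrial membrane, gave 3779 and 3090.7 on U74Av2 (log2 ratio -0.30). Aifm1, a mitochondrial flavoprotein that can move to the nucleus in cell death, gave 1534.3 and 2024.6 on the same chip (log2 ratio 0.39). Of the inhibitors of apoptosis 8 of 11 were measured, 4 on each side of 0, with a median of -0.07 that was 0.02 without U74Cv2 and -0.28 without U74Bv2. Xiap, which blocks caspases directly, stood at 0.30 on U74Bv2 but at -0.60 on U74Cv2, and Birc2, a ubiquitin ligase of the same family, at -0.30 on U74Av2 with 0.23 in a dim probe set.

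Upstream of the members, 7 of 13 death receptor and adaptor genes were measured, 5 below 0 and 2 above, with a median of -0.10. Their ligands and the receptor Fas, singled out after their values were seen, were at the floor on both arrays in every probe set, with Fas at 4.6 and 4.7, Fasl at 6.4 and 4.4, and Tnf at 26 and 20.5 on U74Av2. Traf2, an adaptor of the TNF receptors, stood at -0.10 and Daxx, a nuclear protein that binds FAS, at -0.21. Of the regulators of BCL2 proteins 19 of 23 were measured, 12 below 0 and 7 above, with a median of -0.13 that was 0.06 without U74Av2. Mapk9, which encodes a JNK kinase, stood at -0.21 on U74Bv2 and -0.59 on U74Cv2. Ywhaz, a 14-3-3 protein that holds phosphorylated BAD in the cytosol, stood at 0.05.

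**Figure D4:**
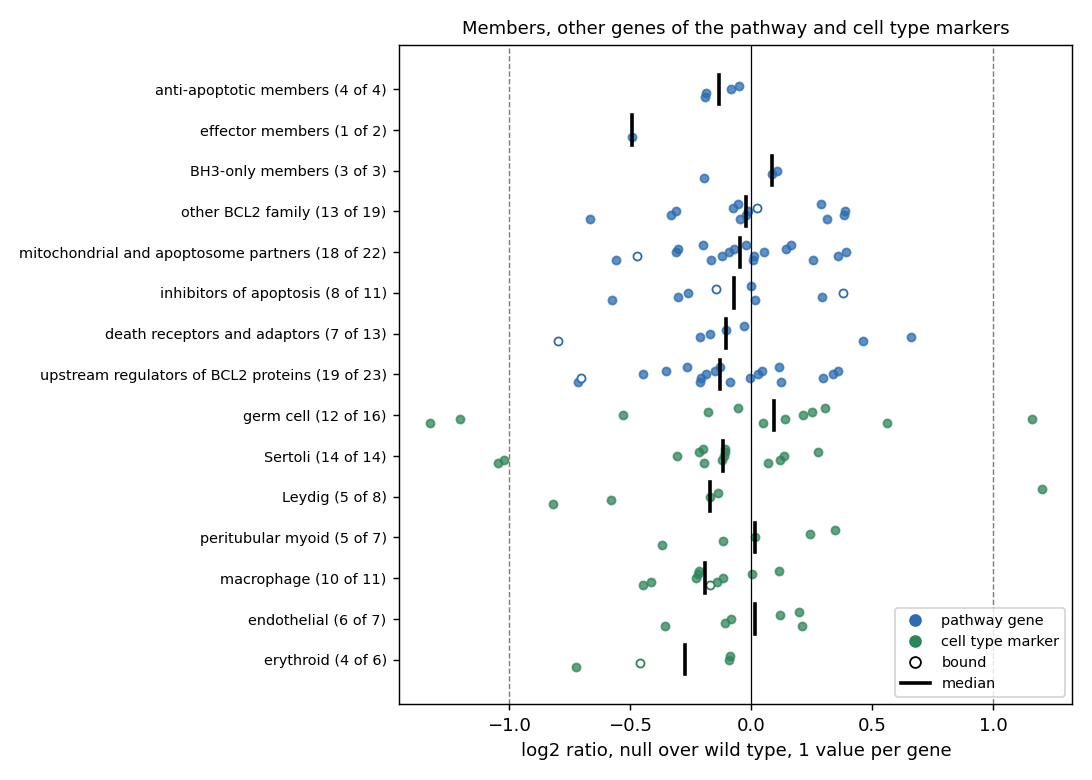
Log2 ratio of null over wild type, 1 value per gene, for the classes of the members, 5 lists of other pathway genes (blue) and 7 lists of cell type markers (green). Open circles are bounds, black bars are medians, dashed lines mark 2-fold, and the numbers beside each name are the genes measured and listed. No pathway gene lies beyond 2-fold, and the medians of the pathway lists lie between -0.13 and -0.02.

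The labelled cell type was checked against markers. Of 16 germ cell genes 12 were measured, with 7 above 0 and 5 below and a median of 0.10, and the list includes the deleted gene. The germ cell probe sets summed to 14587.9 for wild type and 17007 for null on U74Av2, but to 7491.5 and 5737.1 on U74Bv2 and to 25042.7 and 23968.5 on U74Cv2. Tex101, a surface protein of germ cells, gave 6444.5 and 4485.2 on U74Bv2 (log2 ratio -0.53), and Mov10l1, a helicase of the piRNA pathway, gave 16376.6 and 17240.1 on U74Cv2 (log2 ratio 0.05). These probe sets make up most of the germ cell sums of their chips. A dimmer probe set of Mov10l1 on U74Cv2 gave 445.9 and 291.4 (log2 ratio -0.64). Dazl, Sall4 and Bcl6b were singled out after their values were seen. Dazl stood at 0.56, with -0.32 in a dimmer probe set. Sall4 stood at -1.32, with 0.27 and 0.63 in its other probe sets. Bcl6b stood at 1.16 in a dim probe set on U74Cv2, at 160.7 and 365.3. On U74Av2 it gave only a bound of 0.21, and its remaining probe set was at the floor on both arrays. Markers of other cells of the testis gave signal as well. All 14 Sertoli genes were measured, with 10 below 0 and a median of -0.11, and they ranged from -1.04 to 0.28. At least 2-fold lower were 2 of them, Rhox5 at -1.04 and Tsx at -1.02. Among all measured named genes 3.05% were at least 2-fold different in either direction. Clu, a secreted protein of Sertoli cells, read 16758 and 14551.7. The Sertoli probe sets summed to 53149.7 for wild type and 46592.6 for null on U74Av2, but to 4904.7 and 5316.2 on U74Bv2 and to 7158.3 and 7830.8 on U74Cv2. Macrophage genes had a median of -0.19 with 8 of 10 below 0, and ranged from -0.45 to 0.11. Their probe sets summed to 9815.3 and 8565.8 on U74Av2 and to 17071.3 and 13513 on U74Cv2. Ptprc, a pan-leukocyte gene of that list, was at the floor in every probe set. Most of the U74Cv2 sum came from 1 probe set of Laptm5, at 13972.2 and 10423 (log2 ratio -0.45). The Laptm5 probe sets on U74Av2 gave -0.01 and -0.19. Leydig genes had a median of -0.17 over 5, with Cyp11a1 the lowest at -0.81 and Hsd17b3 the highest at 2.30-fold higher in the null, and the median was -0.42 over 7 with a 20th percentile floor or none. Erythroid genes had a median of -0.27 over 4, all 4 below 0, from -0.72 to -0.09. Peritubular myoid and endothelial genes each had a median of 0.02, with ranges of -0.37 to 0.35 and of -0.36 to 0.21. The peritubular myoid median moved to 0.24 with the mean over probe sets and to -0.16 without U74Av2. The germ cell median turned to -0.03 with the mean over probe sets, and the Sertoli median to 0.14 without U74Av2.

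The Sertoli, macrophage, Leydig and erythroid medians were on the same side of 0 as the survival gene median of -0.13. The Sertoli median without U74Av2 was the exception. The medians of the other pathway lists were also below 0, while those of germ cell, peritubular myoid and endothelial genes were above it. The part of any of these cell types in the ratios of the BCL2 family was not tested.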

How the data were processed

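The authors deposited linear intensities per probe set, and the software that made them is not given in the sources used here. Without the lowest and highest 2% of values the mean was between 500.1 and 500.3 on all 6 arrays, so each array had been scaled before deposit. Groups came from the sample titles. Gene names came from GEO's platform annotation, and a probe set with several symbols was left unnamed. Entrez identifiers matched RefSeq symbols for 8 of 8 members found.

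Each chip was processed on its own without its 66 control probe sets. The null array was scaled by the median ratio to wild type over the upper 50% of mean rank, a log2 shift of 0.00 to 0.02. A floor at the 40th percentile followed, then log2 of null over wild type. Counts use 2-fold. The spread is 1.4826 times the median absolute difference between the log2 ratios of a gene's probe sets, divided by the square root of 2, over 68 to 240 pairs per chip and level. The probe set that ranks highest by level on its chip stands for its gene. In probe set names _g, _f and _s can mark sequences shared between transcripts, and _i and _r relaxed design.

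The members, lists and settings were chosen with earlier results of these data known. Named were the members, the targeted gene, and in each pathway list up to 4 genes at least 2-fold different or else the 2 that rank highest by level, and in a cell type list its range or the 2 that rank highest, with exceptions stated. No gene was named for likeness to a member, since 2 arrays per chip give only 1 ratio. The scripts, run with Python 3.11.15 and its packages pandas 2.3.3, numpy 2.4.6, statsmodels 0.14.6 and matplotlib 3.10.9, were tested on simulated data. Other settings tried were no rescaling, quantile normalization, loess, floors at the 20th and 60th percentiles and none, thresholds of 1.5-fold and 3-fold, the mean over probe sets, leaving out each chip, and probe sets of plain design.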

Additional observations from a re-analysis of the deposited data

How the results depend on the processing

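No paired analysis was possible because each genotype had 1 array per chip, and for the same reason no replicate could be left out. The 14 probe sets of the family above the floor on both arrays kept their sign in every setting that gave them a value. So did the 2 bounds, whose signs follow from which array passes the floor where only 1 does. Settings that only leave out probe sets or change the threshold do not alter a probe set's own ratio, so they could not move a sign. The survival gene median stayed below 0, between -0.19 and -0.07, and the median of all members between -0.19 and -0.08. The BH3-only median was -0.18 without U74Av2, where the difference between the classes was -0.11. Of the measured probe sets 13 of 16 lay below 0, which was 7 of 9 for a 60th percentile floor, 7 of 10 with probe sets of plain design and 4 of 4 without U74Av2. It was 15 of 19 for a 20th percentile floor and 16 of 21 with no floor. At least 2-fold higher were 0 probe sets, which was 2 for a 20th percentile floor or no floor, and 1 at a threshold of 1.5-fold. Those 2 were 99418_at of Bcl2l11 and 138120_at of Bcl2l2, a survival gene, the latter at 46 for wild type and 105.2 for null. At least 2-fold lower was 1, which was 2 with no floor and 0 after loess, for a 60th percentile floor, at 3-fold, without U74Av2, with probe sets of plain design and, in a setting chosen after seeing the data, with probe sets above the floor on both arrays. Several of these settings leave fewer probe sets to count. Apart from the shares given above, none over all measured probe sets was computed for the changed settings. Nothing is therefore read from these counts. The ratio of Zbtb16 on U74Av2 was -1.38, a bound, for a 60th percentile floor. Signal near background limits the 5 of 21 probe sets that gave no ratio and the 2 that gave only a bound, and the number of arrays limits all.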

Other observations

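Casp9, which encodes the initiator caspase of the apoptosome and was singled out after its values were seen, had 3 probe sets above the floor on both U74Av2 arrays, and they spread widely. The probe set 100366_at gave 215.2 for wild type and 134.9 for null (log2 ratio -0.68), while 100367_g_at gave 164.8 and 168.9 (log2 ratio 0.03), and 103711_at gave 487.4 and 629.5 (log2 ratio 0.36). Among the members, too, the probe sets of Bad, Bid and Bcl2l11 lay on both sides of 0, whereas the 4 of Bcl2 and the 2 of Mcl1 lay on 1 side.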
